A study of Mus musculus with 12 samples.

Results

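Messenger RNA of 10 genes of the circadian clock was followed in the livers of 12 mice: Arntl, Clock, Npas2, Per1, Per2, Per3, Cry1, Nr1d1, Dbp and Nfil3. They were chosen by name as genes of the clock loop and its first outputs, and each was read from the feature of highest mean signal that the platform annotation pairs with its symbol. Each of the 10 had 1 such feature, out of 65956 transcript features and 30827 named genes on the array. Values are deposited log2 signals, so a difference of 1 is a doubling on the deposited scale.

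The mice were of strain C57BL6/J and were killed at 12 weeks of age. Of these, 6 were ENT3 +/+ (wild type, WT) and 6 were ENT3 -/- (knockout, KO), and each genotype held 3 males and 3 females. ENT3, the product of Slc29a3, carries nucleosides across membranes and is found mainly in lysosomes. The KO was labelled as a whole-animal genotype, and the stretch of the gene removed, the litters, the housing and the hour of death do not stand in the labels used here. Each mouse gave 1 liver at 1 time, so a shift of the daily phase and a change of the daily amplitude cannot be told apart in any comparison that follows.

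The circadian clock is a loop of transcription factors that keeps time in nearly every cell. BMAL1 (the product of Arntl) pairs with CLOCK or NPAS2 and switches on genes with E-boxes in their promoters, among them the Per and Cry genes, Nr1d1 and Dbp. PER and CRY proteins then block that pair, while REV-ERBα (from Nr1d1) represses Arntl, Npas2 and Nfil3 through elements it shares with the ROR activators. In a mouse liver kept in light and dark, Arntl and Npas2 are known to peak near the end of the night. Nr1d1 and Dbp peak by day, and Per1 and Per2 later than these. DBP activates and NFIL3 represses genes through the D-box, and together they pass the rhythm on to many liver genes.

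The promoters hold letters that match some of these elements, and the stretches below are printed as matches of a pattern search. They were not chosen as mapped sites of the factors. Promoter windows of 300 bases, 250 before and 50 after a gene's start, were taken from RefSeq (GRCm38.p6) for 9 of the 10 genes, which together have 13 windows. Both strands were searched for 6 motifs: the E-box CACGTG, its variant CACGTT, the D-box TTANGTAA, the REV-ERB and ROR half-site TNGGTCA, the longer element known as the RORE, which contains that half-site, and the cAMP response element TGACGTCA. Capitals mark the half-sites in Arntl upstream and in Nfil3, the RORE in the second Arntl stretch, the D-boxes in Per3 and the E-boxes in Cry1 and Per1. Sequences run 5′ to 3′ on the strand of the gene.
Arntl upstream, chr7:113207250-113207309, plus strand: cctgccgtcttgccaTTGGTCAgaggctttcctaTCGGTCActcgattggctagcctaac
Arntl after its second start, chr7:113207529-113207558, plus strand: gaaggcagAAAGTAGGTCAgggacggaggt
Nfil3, chr13:52981040-52981099, minus strand: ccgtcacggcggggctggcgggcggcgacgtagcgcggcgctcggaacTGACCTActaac
Per3, chr4:151044801-151044880, minus strand: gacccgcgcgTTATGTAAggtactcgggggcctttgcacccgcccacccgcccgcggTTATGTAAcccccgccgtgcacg
Cry1, chr10:85185085-85185144, minus strand: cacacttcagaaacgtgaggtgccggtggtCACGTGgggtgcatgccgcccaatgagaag
Per1, chr11:69098753-69098812, plus strand: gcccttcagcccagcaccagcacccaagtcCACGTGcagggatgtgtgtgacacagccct

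The half-site lay 200 and 181 bases before the first Arntl start and 12 bases before the Nfil3 start, where it is read on the opposite strand. The half-site was present in 11.0% of all 32851 promoter windows. The upstream Arntl matches, TTGGTCA and TCGGTCA, fit the half-site pattern but were not part of a RORE match. The RORE, 27 bases after the second Arntl start, was present in 0.384% of windows. Both D-boxes of Per3, 205 and 158 bases before its start, belong to a motif found in 2.32% of windows, and Per3 also held a half-site 118 bases before its start. The E-box lay 60 bases before the Cry1 start and 166 before a Per1 start, and was present in 7.15% of windows. The variant CACGTT, present in 4.68% of windows, lay 79 bases before the Cry1 start and 28 before the Nr1d1 start. The cAMP response element, in 1.79% of windows, was in none of the member windows, and no searched motif was in the windows of Clock, Npas2 and Dbp. These matches describe letters in a window, and no binding was measured.

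The arrays of each group were alike, with Pearson correlations of 0.987 to 0.995 between mice of a group across features, which are not independent replicates. Array medians ran from 3.76 to 3.89, and with 3 arrays a group the number of mice limits the precision. Slc29a3 itself read 4.82 to 5.29 in WT and 4.10 to 4.19 in KO mice (-0.94 ± 0.07 SE, limma adjusted p = 0.000324). All of these Slc29a3 values lay within the negative controls. Xist at 10.28 to 12.39 in mice titled F and 4.18 to 4.45 in mice titled M, with Eif2s3y at 4.73 to 4.95 and 7.36 to 8.26, matched the letters, which are read here as female and male. Several array measures moved with genotype: KO arrays had poly-A spikes, which enter the RNA ahead of the labelling step, at 5.44 ± 0.36 (SD, n = 6), and WT arrays had them at 6.30 ± 0.32 (SD, n = 6). The two-sided exact permutation of genotype in each sex gave p = 0.005, the smallest it can give, and a Benjamini-Hochberg p of 0.0133 over 8 measures. The 95th percentile of the negative controls, used below as the mark of a dim feature, ran from 6.20 to 6.83, with KO arrays above WT arrays by 0.36 on average (exact permutation p = 0.005). Clock alone lay above that mark on every array, while Npas2, Per2, Per3 and Nfil3 lay below it on every array, so the sizes of their differences are uncertain and no fold is given for them.

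The first question was whether the clock genes differ by genotype. Averaged over the sexes, 3 of the 10 rose in KO livers, Arntl, Npas2 and Nfil3, and 3 fell, Per2, Nr1d1 and Dbp. Of all features 9.75% were called in this comparison, 5.28% as higher and 4.47% as lower (limma, Benjamini-Hochberg adjusted p under 0.05 over 65956 features). Those shares include dim features. Among the 10483 features above the negative controls on at least 3 arrays 47.6% were called, as were 3 of the 5 members in that set. The counts of members are therefore not read as enrichment. The split over all features, 3482 higher and 2950 lower, became 2555 and 4091 with quantile normalization, under which the 6 genes kept their directions. Across the 10 genes the median difference was 0.18, against 0.05 over all features. In females 5 of the 10 were called, with Arntl, Npas2 and Nfil3 higher and Per2 and Dbp lower, where 6.19% of features were called, 3.13% higher and 3.06% lower. In males Nr1d1 was the 1 gene called, as lower, where 1.09% of features were called. When each array's poly-A level entered the model as a covariate, 0 of the 10 were called over both sexes (7 at an unadjusted p under 0.05, limma), where 0.00455% of all features, 3 in all, were called. The 6 genes kept their directions under it with larger differences, Arntl at 2.23, Nr1d1 at -3.25 and Dbp at -4.12 among them, and in females Nfil3 stayed called at 2.05 (limma adjusted p = 0.0431). These are bulk livers, in which fewer cells of a type and less RNA per cell cannot be told apart.

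**Figure D1:**
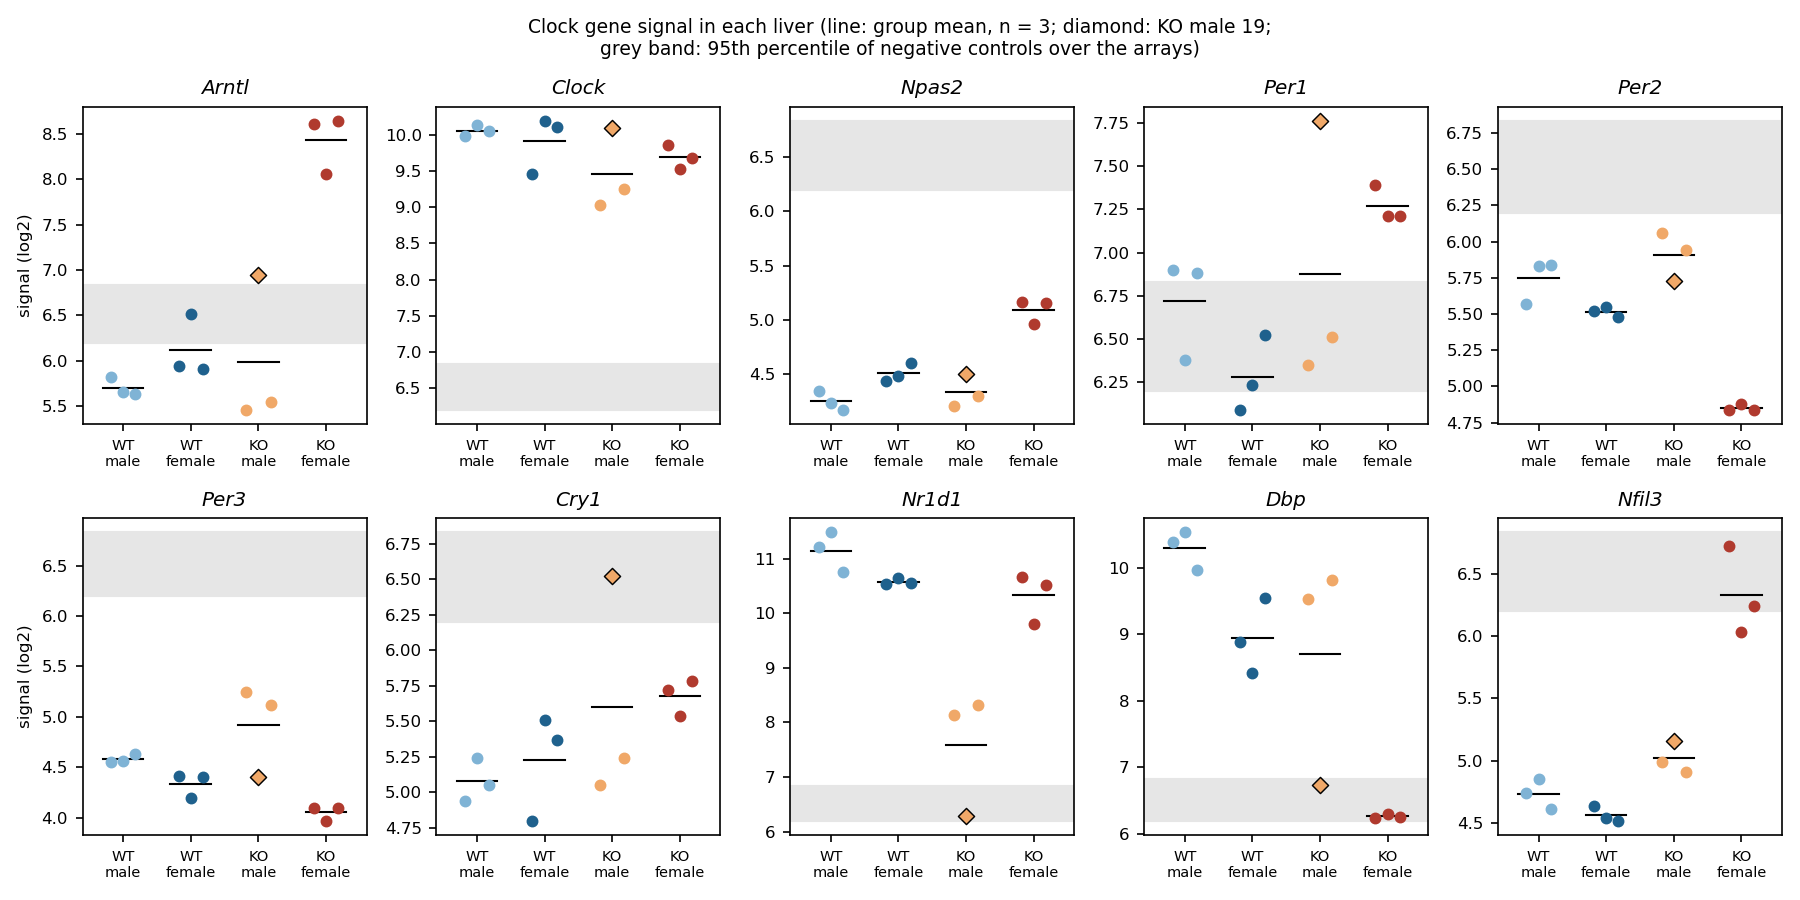
Log2 signal of each clock gene (vertical axes, own scale per gene) in each of the 12 livers by group; lines are means of 3 mice, the diamond is KO male 19 and the grey band spans the 95th percentile of negative controls over the arrays (6.20 to 6.83). KO females stand apart from all other mice for Arntl, Npas2, Per2, Per3, Dbp and Nfil3, and KO males for Nr1d1.

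Arntl encodes BMAL1, the partner that all activating complexes of the loop share. It read 8.61, 8.06 and 8.64 in KO females 13, 40 and 69, and 5.94, 6.51 and 5.91 in WT females 25, 27 and 38. KO females lay above every other mouse, and 2 of the 3 WT females were not above the negative controls. The difference in females was 2.32 ± 0.36 (SE, 95% interval 1.53 to 3.11, limma adjusted p = 0.00624), and no exact fold is given because of those dim WT values. Among males Arntl read 5.82, 5.65 and 5.63 in WT and 5.46, 6.95 and 5.54 in KO, so 2 KO males were below every WT male and KO male 19 was above all of them. The male difference was 0.29 ± 0.36 (limma adjusted p = 0.831) and without KO male 19 it was -0.20. Over both sexes Arntl rose by 1.30 ± 0.25 (limma adjusted p = 0.0102).

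Npas2, the paralogue of CLOCK that can take its place beside BMAL1, showed the same order of groups at dim signals. KO females read 5.16, 4.96 and 5.15 and WT females 4.43, 4.48 and 4.60, with no overlap. The difference was 0.58 ± 0.09 in females (limma adjusted p = 0.00804). Male groups overlapped, at 4.34, 4.23 and 4.17 in WT and 4.20, 4.50 and 4.30 in KO (0.09 ± 0.09, limma adjusted p = 0.798). The call over both sexes, 0.34 ± 0.07 (limma adjusted p = 0.0118), was lost with quantile normalization (adjusted p = 0.114). That 0.34 is no larger than the 0.36 by which the 95th percentile of the negative controls was higher on KO arrays. The part of that shift in the Npas2 values was not tested.

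Clock, the first known partner of BMAL1 and a gene of weak rhythm in liver, was bright on all arrays. It read 9.99, 10.14 and 10.06 in WT males and 9.46, 10.19 and 10.11 in WT females. KO males read 9.03, 10.10 and 9.25, where KO male 19 sat among the WT mice and the other KO males below all of them. KO females read 9.87, 9.53 and 9.68, within the range of WT females. The difference over both sexes was -0.41 ± 0.19 (95% interval -0.83 to 0.01, limma adjusted p = 0.225). Without KO male 19 it was -0.57 and was called (adjusted p = 0.0309).

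The 4 repressors of the Per and Cry families did not move as 1 block. Per1, a PER protein gene that also answers quickly to glucocorticoids and cAMP, read 7.39, 7.21 and 7.21 in KO females against 6.09, 6.23 and 6.52 in WT females. Those groups did not overlap, but the difference of 0.99 ± 0.32 missed the threshold (limma adjusted p = 0.106). In males Per1 was 6.90, 6.38 and 6.88 in WT and 6.35, 7.76 and 6.51 in KO, with KO male 19 the highest of all 12 mice. Leaving out that mouse brought the female difference past the threshold at the same size (adjusted p = 0.0086) and turned the male difference from 0.15 to -0.29.

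Per2, the PER gene most needed for a stable rhythm, went the other way in females. KO females read 4.84, 4.88 and 4.84 and WT females 5.52, 5.55 and 5.48, with no overlap. The difference in females was -0.66 ± 0.10 (95% interval -0.88 to -0.45, limma adjusted p = 0.00529). KO males read 6.06, 5.73 and 5.94 and WT males 5.57, 5.83 and 5.84, which overlap (0.16 ± 0.10, limma adjusted p = 0.56). Over both sexes the difference was -0.25 ± 0.07 (limma adjusted p = 0.0478), and that call was lost in 10 of the 12 fits that left out 1 mouse.

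Per3, a PER gene used mainly as an output of the loop, is the promoter above with a pair of D-boxes. It read 4.10, 3.97 and 4.10 in KO females and 4.41, 4.19 and 4.40 in WT females, again with no overlap (-0.28 ± 0.18, limma adjusted p = 0.43). In males it read 4.55, 4.56 and 4.63 in WT and 5.25, 4.40 and 5.12 in KO, with KO male 19 below every WT male and the other KO males above. Without KO male 19 the male difference was 0.60 and was called (adjusted p = 0.0182), against 0.34 ± 0.18 with it (adjusted p = 0.489). Cry1, whose protein is the stronger repressor of the loop late at night, read 5.72, 5.54 and 5.78 in KO females and 4.80, 5.51 and 5.37 in WT females, which did not overlap by a narrow margin. KO males read 5.05, 6.52 and 5.24 and WT males 4.94, 5.24 and 5.05, and the difference over both sexes was 0.49 ± 0.24 (95% interval -0.04 to 1.01, limma adjusted p = 0.249).

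Nr1d1 encodes REV-ERBα, a repressor of Arntl and Nfil3, whose binding to the stretches shown above was not measured. Nr1d1 was the member with the largest difference in males. WT males read 11.21, 11.48 and 10.75, and KO males 8.14, 6.29 and 8.31. Every KO male lay below every other mouse, and KO male 19 was lowest and within the negative controls. The male difference was -3.57 ± 0.46 (95% interval -4.60 to -2.53, limma adjusted p = 0.00875), and no exact fold is given because of that dim value. It remained -2.92 without KO male 19 (adjusted p = 0.00771), and leaving out WT male 23 moved its adjusted p to 0.0509. In females Nr1d1 read 10.54, 10.64 and 10.56 in WT and 10.66, 9.81 and 10.52 in KO, which overlap (-0.25 ± 0.46, 95% interval -1.28 to 0.79, limma adjusted p = 0.822). That interval is wide, and it does not show that females were alike.

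Dbp, the activator acting on D-boxes and a gene with one of the largest daily swings in liver, was lowest in KO females. WT females read 8.88, 8.42 and 9.54, and KO females 6.24, 6.30 and 6.26, all within the negative controls. The groups did not overlap, and the measured difference of -2.67 ± 0.66 (limma adjusted p = 0.043) corresponds to at least 4.56-fold lower when the dim group is set to the lowest measurable level. The female call was lost in 9 of the 12 fits that left out 1 mouse (adjusted p up to 0.152). WT males read 10.39, 10.53 and 9.96 and KO males 9.53, 6.74 and 9.82, also without overlap (-1.60 ± 0.66, limma adjusted p = 0.345). Without KO male 19 the male difference was -0.62, so much of its size came from that 1 mouse. Over both sexes Dbp fell by 2.13 on the log2 scale (SE 0.47, limma adjusted p = 0.0184).

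Nfil3 encodes the repressor that competes with DBP for D-boxes. KO females read 6.72, 6.03 and 6.24 and WT females 4.64, 4.54 and 4.52. The difference in females was 1.76 ± 0.15 (95% interval 1.42 to 2.10, limma adjusted p = 0.000848), the smallest adjusted p among the members in females. KO males read 4.99, 5.16 and 4.91 and WT males 4.74, 4.85 and 4.61, so all KO males were above all WT males, by little (0.28 ± 0.15, limma adjusted p = 0.504). Over both sexes the rise was 1.02 ± 0.11 (limma adjusted p = 0.000836).

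**Figure D2:**
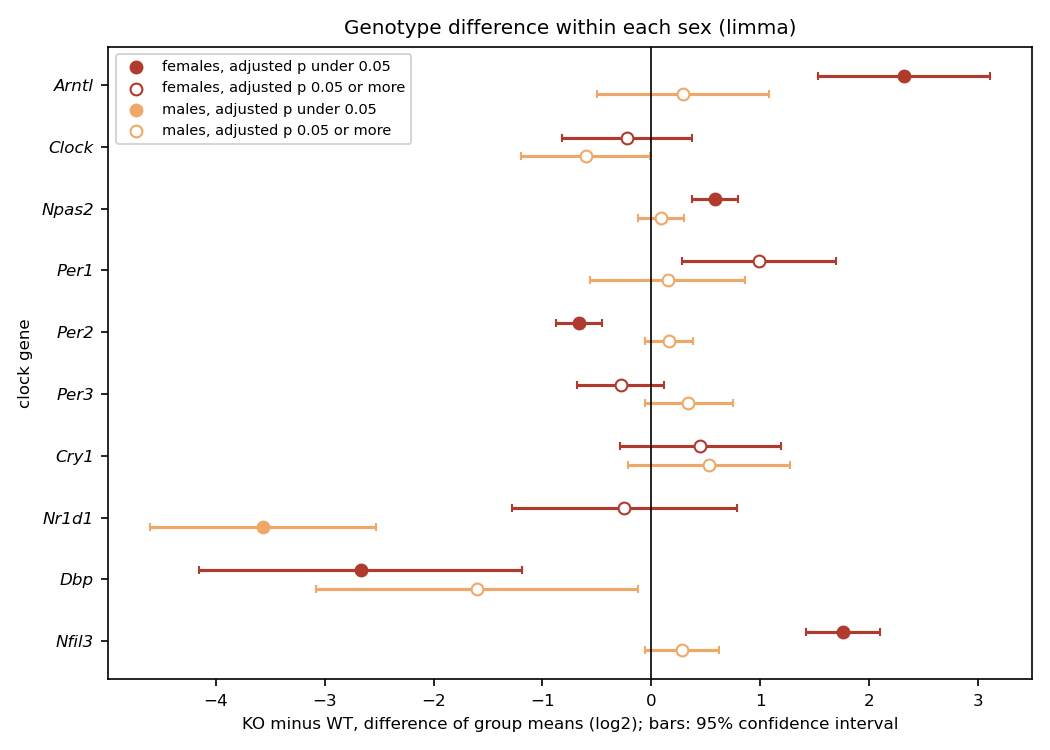
KO minus WT difference of log2 signal for each clock gene within females (dark) and males (light); points are differences of group means of 3 mice, bars are 95% confidence intervals, and filled points have an adjusted p under 0.05 (limma). Female calls are Arntl, Npas2, Per2, Dbp and Nfil3, and the male call is Nr1d1.

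Counted without a test, KO and WT females did not overlap for 8 of the 10 genes, all but Clock and Nr1d1, where 25.7% of all features had female groups apart. KO and WT males did not overlap for 3 of the 10, Nr1d1, Dbp and Nfil3, where 18.6% of features had male groups apart.

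Whether the genotype difference itself depended on sex was tested as an interaction. None of the 10 genes passed (0 called by limma, 6 at an unadjusted p under 0.05), where 0.00152% of features, 1 in all, were called. The largest were Nr1d1 at 3.32 ± 0.66 (female minus male difference, 95% interval 1.86 to 4.79, limma adjusted p = 0.287) and Arntl at 2.03 ± 0.50 (0.91 to 3.15, limma adjusted p = 0.376). Nfil3 stood at 1.48 ± 0.22 (limma adjusted p = 0.115) and Per2 at -0.83 ± 0.14 (limma adjusted p = 0.182). Arntl passed without KO male 19 (2.52, adjusted p = 0.0377) and Nfil3 without KO female 40 (1.63, adjusted p = 0.0256). Female and male livers of the same genotype were also compared directly. Within WT 0 of the 10 genes were called (2 at an unadjusted p under 0.05 by limma), where 0.206% of features were called. Within KO 5 were called, where 0.898% of features were called: Arntl, Npas2, Nfil3 and Nr1d1 higher in females and Per2 lower. Averaged over genotypes 4 were called, Arntl, Npas2 and Nfil3 higher in females and Per2 lower, where 1.23% of features were called.

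KO male 19 differed from KO males 18 and 39 in most members. Set against the mean of WT males it stood at 1.25 for Arntl, 1.44 for Cry1, -4.86 for Nr1d1 and -3.55 for Dbp. KO males 18 and 39 stood at -0.24 and -0.15 for Arntl, and at -3.01 and -2.84 for Nr1d1. KO male 19 thus shared the low Nr1d1 of the KO males, while its Dbp and Per1 lay nearer those of the KO females and its Arntl lay between the others of both groups. Its poly-A level of 6.06 and its negative-control percentile of 6.40 also lay nearer the WT arrays than those of any other KO mouse, and their part in its values was not tested.

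**Figure D3:**
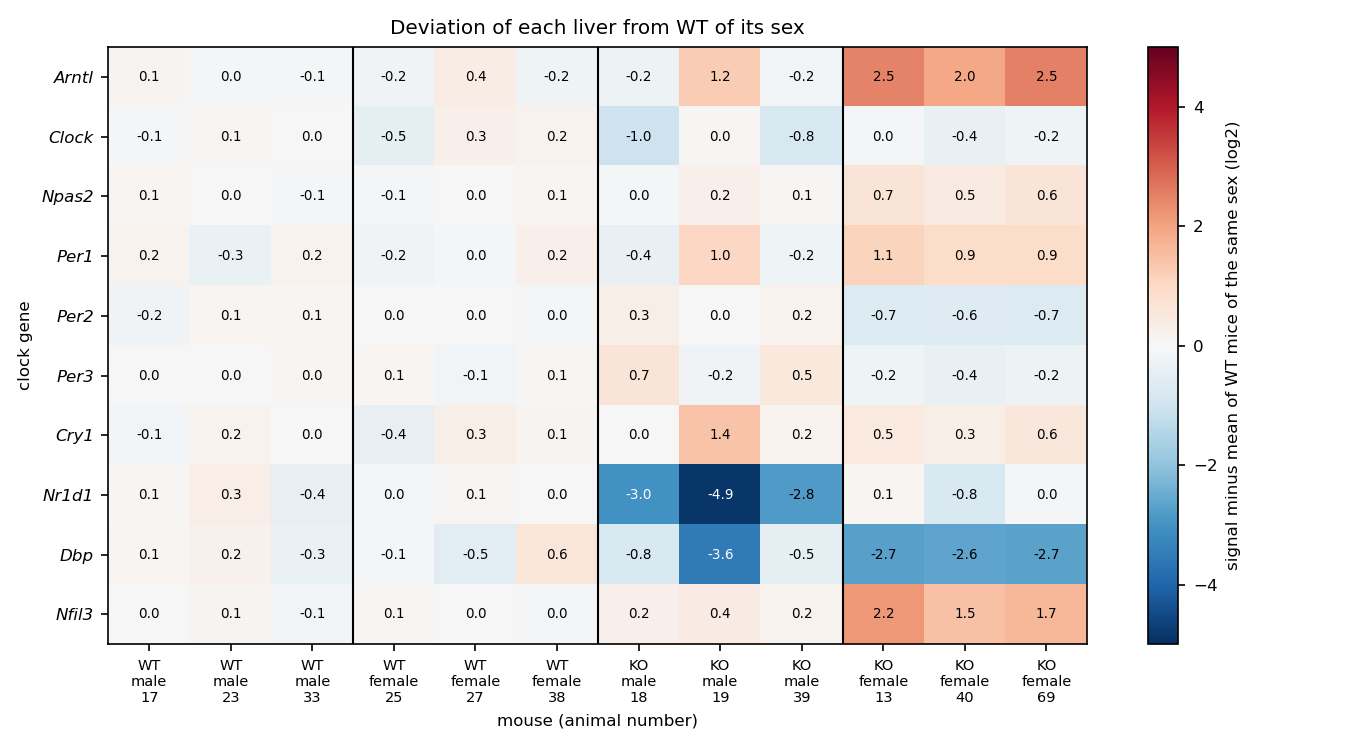
Log2 signal of each clock gene in each mouse minus the mean of the 3 WT mice of the same sex (colour and printed value). KO females share raised Arntl and Nfil3 and lowered Dbp; KO males share lowered Nr1d1, and KO male 19 carries both raised Arntl and lowered Dbp.

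The spread between mice of a group differed widely among the members. After group means were removed, the standard deviation was 0.91 for Dbp, above 99% of features, 0.63 for Nr1d1 and 0.48 for Arntl. It was 0.12 for Per2 and 0.11 for Npas2, both dim on all arrays, against a median of 0.16 over all features and 0.31 over the 6762 features above the negative controls on every array.

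Pairs of members known to peak together or opposite each other were compared across the 6 mice of a genotype, as deviations from the mean of each mouse's own group (4 pairs in each genotype, 8 relations). In KO mice Arntl and Dbp gave Pearson r = -0.93 (exact permutation p = 0.00833, Benjamini-Hochberg p = 0.0333) and Spearman rho = -0.89 (exact permutation p = 0.0333, Benjamini-Hochberg p = 0.133). Arntl and Npas2 gave r = 0.93 (exact permutation p = 0.00833, Benjamini-Hochberg p = 0.0333) and rho = 0.89 (exact permutation p = 0.0333, Benjamini-Hochberg p = 0.133). Dbp and Per3 gave r = 0.96 (exact permutation p = 0.0167, Benjamini-Hochberg p = 0.0445) and rho = 0.71 (exact permutation p = 0.136, Benjamini-Hochberg p = 0.272). By rank, then, none of the 8 relations passed. Those p-values exchange mice between the sexes, whose spreads differ: the SD of Dbp was 1.70 in KO males and 0.03 in KO females. When mice were exchanged only within a sex, which allows 36 arrangements and a smallest p of 0.0278, the exact permutation p was 0.167, 0.0556 and 0.333 for the 3 pairs, and 0 of the 8 relations passed (smallest Benjamini-Hochberg p = 0.444). With so few arrangements this test could hardly pass after adjustment over 8 relations. It does not decide whether the 3 relations hold within sex.

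Without the 2 mice farthest from the median of the first gene, r was -0.67, 0.86 and 0.91 for those pairs. Arntl and Nr1d1 gave r = -0.72 in KO mice (exact permutation p = 0.0847; rho = -0.77, exact permutation p = 0.103) and 0.09 without those mice. In WT mice none of the 4 passed (smallest Benjamini-Hochberg p = 0.256): r was -0.65 for Arntl and Dbp (exact permutation p = 0.16; rho = -0.54, exact permutation p = 0.297), 0.02 for Arntl and Npas2 (exact permutation p = 0.979; rho = 0.14, exact permutation p = 0.803), 0.48 for Dbp and Per3 (exact permutation p = 0.343; rho = 0.37, exact permutation p = 0.497) and 0.20 for Arntl and Nr1d1 (exact permutation p = 0.668; rho = 0.54, exact permutation p = 0.297).

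**Figure D4:**
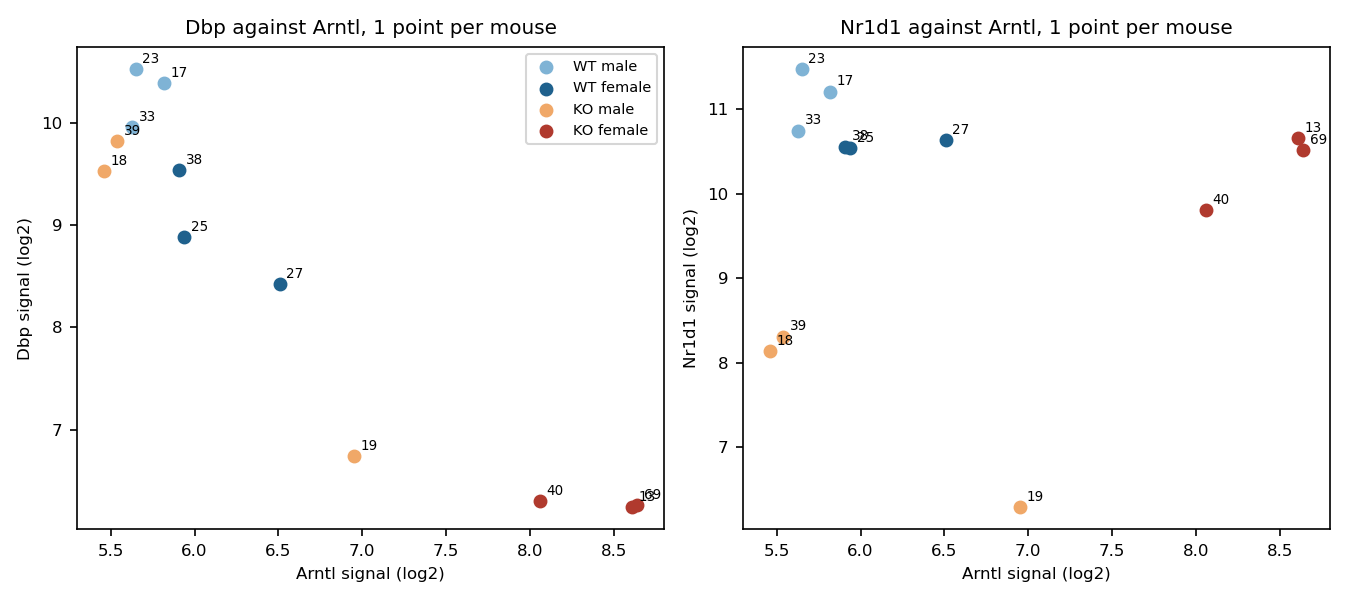
Log2 signal of Dbp (left) and of Nr1d1 (right) against Arntl, 1 point per mouse with its animal number, coloured by group. Dbp is high where Arntl is low and lowest in KO females, where Arntl is highest, and Nr1d1 is low in KO males both at low Arntl (18 and 39) and at 6.95 (19).

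Likeness to Arntl and Dbp was measured over all 12 arrays with group means removed and is given as a description; KO male 19 had the largest deviation from its group mean for both genes. Among 3484 named genes above the negative controls and below the ceiling on every array, Clpx, Gatad2b and Tars (r = 0.95 each) and F2r (0.94) were most like Arntl. Acnat1 and Xiap (-0.96), Atg3 (-0.95) and Azin1 (-0.94) were most opposite to it. The genes most like Dbp were Nat8f2 and Diaph2 (0.96), Ccdc58 (0.95) and Oaf (0.94), and the most opposite were Smc3 (-0.98), Tiprl (-0.96), U2surp and Ggnbp2 (-0.94 each). Among the members themselves r was 0.96 for Clock with Cry1, 0.89 for Arntl with Cry1, 0.91 for Dbp with Per3 and 0.86 for Dbp with Nr1d1, while no correlation of Nfil3 with another member was over 0.50.

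The rest of the loop was read from lists of other clock genes. Of 11 measured further transcription factors and repressors, 3 fell over both sexes and 0 rose. Their median was -0.17 against 0.05 over all features. Of all features 4.47% were called lower and 5.28% higher, shares that include dim features. Among the 10483 features above the negative controls on at least 3 arrays 47.6% were called. Of 50 genes in that set from the 8 loop, modifier, output and cue lists, 9 rose and 13 fell. The list counts here and below are therefore not read as enrichment. Nr1d2, which encodes REV-ERBβ and is bright on all arrays, was at -0.62 ± 0.12 (limma adjusted p = 0.00974). Bhlhe41, an E-box repressor known as DEC2, was at -0.39 ± 0.07 (limma adjusted p = 0.00647) and dim throughout. It was at -0.13 in females (limma adjusted p = 0.486) and -0.65 in males (0.018). Of the relatives of Dbp, Hlf was at -0.51 ± 0.13 (limma adjusted p = 0.0339, lost in 8 of the 12 fits without 1 mouse) and Tef at -0.42 ± 0.12 (limma adjusted p = 0.0576). Hlf lay above the negative controls on 8 of the 12 arrays, and Tef lay within them on every array. By sex, Nr1d2 differed by -0.97 in females (limma adjusted p = 0.0103) and by -0.27 in males (0.578), the reverse order of Nr1d1; that contrast between the paralogues was not tested.

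Of 13 measured kinases, ubiquitin ligases and co-repressors that act on clock proteins, 1 rose and 4 fell (all features: 5.28% and 4.47%), with a median of -0.06. Hdac3, the deacetylase that REV-ERBα recruits to its targets, was at -0.50 ± 0.08 (limma adjusted p = 0.00357). Prkaa2 and Prkaa1, the catalytic subunits of AMPK, a kinase that marks CRY proteins for breakdown, were at -0.88 ± 0.18 (limma adjusted p = 0.0125) and -0.61 ± 0.12 (0.0129). In females they were at -1.31 (limma adjusted p = 0.0161) and -1.06 (0.00861). Males stood at -0.45 (limma adjusted p = 0.524) and -0.16 (0.808). Csnk2a1, a casein kinase subunit, was at -0.24 ± 0.05 (limma adjusted p = 0.013). The gene that rose was Sirt1, named after its values were seen, at 0.23 (limma adjusted p = 0.0473). Sirt1 lay within the negative controls on every array, so the size of its difference is uncertain.

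DBP, HLF and TEF are known to drive genes of detoxification and lipid use in liver. Of 6 such genes measured, 1 fell and 0 rose over both sexes, with a median of -0.78, where 4.47% of all features were called lower. Ppara, a nuclear receptor of fatty acid use, was at -1.62 ± 0.35 (limma adjusted p = 0.0173), and Nr1i3, the xenobiotic receptor CAR, was at -1.45 ± 0.48 (limma adjusted p = 0.0947). In females 2 of the 6 were called lower, where 3.06% of features were: Ppara at -2.00 (limma adjusted p = 0.0431) and Cyp7a1, the rate-limiting enzyme of bile acid synthesis, at -5.89 ± 1.38 (0.0346). Cyp7a1, named after its values were seen, was at 1.70 ± 1.38 in males (limma adjusted p = 0.698), and its interaction, -7.60 ± 1.95, was not called (0.407). Of 9 known targets of E-boxes or REV-ERB, 2 rose and 2 fell. Nampt, the limiting enzyme of NAD salvage, was at 1.11 ± 0.19 (limma adjusted p = 0.00614) and Cdkn1a, a cell cycle inhibitor that REV-ERBα represses, at 2.42 ± 0.56 (limma adjusted p = 0.0235, lost in 3 of the 12 fits without 1 mouse). Gys2, the liver glycogen synthase, was at -1.67 ± 0.30 (limma adjusted p = 0.00694) and Elovl3, a fatty acid elongase with a strong daily rhythm and a known male bias in mouse liver, at -3.10 ± 0.66 (limma adjusted p = 0.0163). Gys2 differed by -2.87 in females (limma adjusted p = 0.00523) and -0.47 in males (0.738), and Elovl3 by -1.39 in females (0.448) and -4.81 in males (0.045). Elovl3 lay above the negative controls on only 6 of the 12 arrays, so the sizes of its differences are uncertain. Nampt differed by 0.64 in females (limma adjusted p = 0.215) and 1.58 in males (0.0296).

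**Figure D5:**
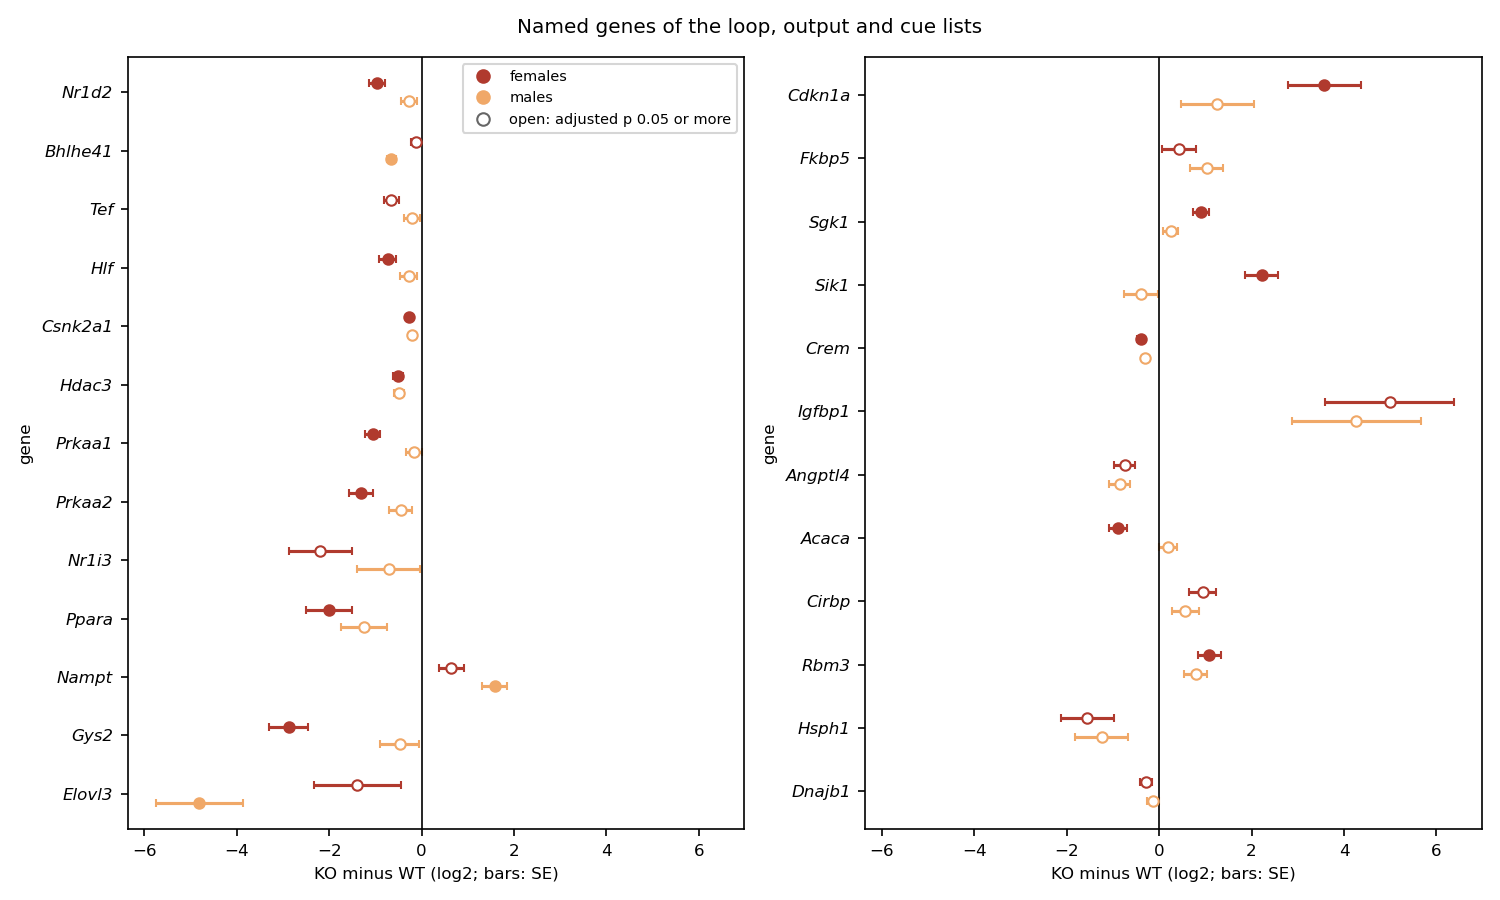
KO minus WT difference of log2 signal within females (dark) and males (light) for the named genes of the other loop, output and cue lists; points are differences of group means of 3 mice, bars are SE, and filled points have an adjusted p under 0.05 (limma). Gys2 at -2.87 in females and Elovl3 at -4.81 in males lie farthest to the left among called genes.

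Hormones, feeding and body temperature can reset a liver clock, so genes that answer to them were read as lists. Of 7 glucocorticoid response genes 1 rose, where 5.28% of all features were called higher, too few genes to set against that share. It was Sgk1, a kinase, at 0.58 ± 0.12 (limma adjusted p = 0.0153), and Fkbp5, a chaperone of the receptor, was at 0.73 ± 0.25 (0.11). The list's median was 0.42. Sgk1 lay above the negative controls on 6 of the 12 arrays. Tat, also in the list, was at the ceiling of the deposited scale, 19.93, on 11 of the 12 and could hardly show a rise. Of 9 fasting and cAMP genes 2 rose and 2 fell, with a median of 0.11. Igfbp1, which binds insulin-like growth factors in blood, was at 4.63 ± 0.98 (limma adjusted p = 0.0155), and Sik1, a kinase induced by cAMP, at 0.92 ± 0.25 (0.0473), lost in 10 of the 12 fits without 1 mouse. By sex, Sik1 was at 2.22 ± 0.36 in females (limma adjusted p = 0.00755) and -0.39 ± 0.36 in males (0.743). Its interaction, 2.62 ± 0.50, was not called (limma adjusted p = 0.275). Sik1 lay above the negative controls on 7 of the 12 arrays. Angptl4, a lipase inhibitor induced by fasting, was at -0.80 ± 0.16 (limma adjusted p = 0.013) and Crem, a cAMP-responsive factor, at -0.35 ± 0.06 (0.00517). Crem lay within the negative controls on every array, so the size of its difference is uncertain.

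Of 3 measured feeding genes none was called over both sexes (0 by limma, 1 at an unadjusted p under 0.05), with a median of 0.00. Acaca, which makes malonyl-CoA, was at -0.35 ± 0.14 (limma adjusted p = 0.173); it fell in females (-0.89 ± 0.20, limma adjusted p = 0.0313) and was at 0.19 ± 0.20 in males (0.788). Of 6 temperature genes 1 rose and 0 fell, with a median of -0.01, again too few to set against the share over all features. Hspa8 in that list was at the ceiling on all 12 arrays, and Hspa1a was above the negative controls on 0, which limits the median. Rbm3, an RNA-binding protein made more in the cold, was at 0.94 ± 0.17 (limma adjusted p = 0.00731) and its relative Cirbp at 0.76 ± 0.21 (0.0502). The heat-shock genes Hsph1 and Dnajb1 were at -1.39 ± 0.40 (0.057) and -0.21 ± 0.09 (0.204). The part of any of these cues in the clock values was not tested.

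Marker RNA of some cell types moved with genotype as well. Over all features 5.28% were called higher and 4.47% lower, and 47.6% were called among those above the negative controls on at least 3 arrays. Of 12 Kupffer cell and macrophage markers 10 rose in KO, with a median of 2.48. In females 9 of the 12 were called and in males 0 (10 at an unadjusted p under 0.05, limma), where 6.19% and 1.09% of features were. The log2 of the summed signal of these markers ran from 11.89 to 13.57 in WT, 14.05 to 16.31 in KO males and 15.46 to 18.69 in KO females. Of 10 neutrophil markers 7 rose, with a median of 1.53. In females 6 of the 10 were called and in males 0 (8 at an unadjusted p under 0.05, limma). The summed level of the neutrophil markers ran from 7.66 to 8.64 in WT, 9.74 to 16.91 in KO males and 15.63 to 16.95 in KO females. Of these 10, 5 lay within the negative controls on every array. Of 8 endothelial markers 3 rose and 2 fell. Hepatocyte markers were at the ceiling of the deposited scale, 19.93, for 7 of 8 genes on all arrays and so could show no change. None of the stellate, cholangiocyte, lymphocyte or erythroid markers was called (0 by limma, with 0 of 8, 1 of 5, 1 of 7 and 2 of 3 at an unadjusted p under 0.05). In the same order, 4 of 8, 4 of 5, 6 of 7 and 2 of 3 lay within the negative controls on every array. The lack of calls therefore does not show that these cell types were unchanged. The part of the macrophage and neutrophil markers in the clock differences was not tested.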

How the data were processed

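Total RNA from 12 snap-frozen mouse livers was hybridised to 1 Affymetrix array each. The deposited values are log2 signals per feature that the authors deposited. Per the submitters' processing notes they came from Transcriptome Analysis Console, with no version. The sources used here give no background correction, normalization or probe build. Control features (6732 of 72688) were kept out of the tests. Symbols came from the platform annotation, updated through RefSeq gene IDs.

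A model of 4 group means (sex by genotype, 3 mice each, 8 residual degrees of freedom) was fitted to all 65956 transcript features with limma 3.58.1 in R 4.3.3 (lmFit, eBayes), with Benjamini-Hochberg adjustment and a threshold of 0.05, and was tested on simulated data. Dim features stayed in the main fit. The labels do not name separate litters, so p-values measure the spread between these mice. Animal numbers name mice only. A feature was called dim where it lay at or below the 95th percentile of the 5222 negative controls on its array.

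The genes and lists were chosen with earlier results of these data known. Named genes were the 10 members and Slc29a3; up to 4 members of each list with the smallest unadjusted p, or the 2 brightest where none was under 0.05; and the 4 genes most like and most opposite to Arntl and Dbp. Alternatives were quantile normalization, median centring, a filter on dim features, an intensity trend, the poly-A level as a covariate, a model without sex, the mean of a gene's features, and leaving out mice.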

Additional observations from a re-analysis of the deposited data

How the results depend on the processing

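Of the 10 clock genes 6 were called over both sexes. That count was 3 among features above the negative controls on at least 3 arrays, which left 5 members in the test and called 47.6% of its 10483 features. It was 0 with the poly-A covariate (7 at an unadjusted p under 0.05, limma), where 0.00455% of all features were called, and 0 without the sex term (7 at an unadjusted p under 0.05, limma), where 6.71% were. Differences were the same with the filter and without the sex term, and larger in size with the covariate for all 6 genes. The count in females, 5, became 3 with that filter and 1 with the covariate. In males the count of 1 became 0 with the covariate (3 at an unadjusted p under 0.05, limma), 2 without KO male 19 and WT female 38 together, and 0 to 2 when each mouse was left out. The interaction count of 0 became 1 without both mice, and 0 to 1 when each was left out. The female minus male count of 4 became 2 with the filter, 0 with the covariate (7 at an unadjusted p under 0.05, limma), 2 to 6 when each mouse was left out (6 without KO male 19), and 0 within WT, a comparison added after seeing the data. The 19 calls among the 8 loop, modifier, output and cue lists became 0 with the covariate (25 at an unadjusted p under 0.05, limma) and 7 without the sex term. The 3 relations between genes passed by Pearson r and not by Spearman rho (exact permutation, smallest Benjamini-Hochberg p = 0.133). Their count by Pearson r became 5 on levels and 0 when permuted within sex. That last test was added after seeing the data and has too few arrangements to decide. The cause was not tested for the covariate, which itself differs by genotype.

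Directions turned for Clock with the covariate (0.38 over both sexes, 0.54 in females, 0.21 in males), and for Per3 over both sexes with quantile normalization (-0.06), centring (-0.04) and the covariate (-0.54; -0.25 in males), none of them called. Without KO male 19 and WT female 38 together, males stood at -0.20 for Arntl and -0.29 for Per1, and the Cry1 interaction at 0.45. Leaving out each mouse gave -0.20 to 0.55 for Arntl in males, -0.29 to 0.41 for Per1 in males, -0.05 to 0.16 for Per3 over both sexes, -0.36 to 0.38 for the Cry1 interaction and -0.41 to 0.01 for Nr1d1 in females. Over all features the split of 3482 higher and 2950 lower became 2555 and 4091 with quantile normalization and 2538 and 4001 with centring, with the median moving from 0.05 to -0.01 and -0.02. No paired analysis was possible because the animal numbers differ between all groups. Most members are dim, which limits the size of their differences.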
